A study of Homo sapiens with 12 samples.

Results

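The genes described here were 44 human genes of DNA repair and of the Fanconi anemia pathway, given as a list of symbols and read from all 58735 genes of an FPKM table of 12 RNA-seq libraries. They comprised 9 genes of homologous recombination, 8 of the Fanconi core complex, FANCD2 with FANCI and BRIP1, 3 helicases or exonucleases, 2 mismatch repair genes, 8 of checkpoint signalling, 4 of end resection, 3 of base excision or strand break repair and 4 of end joining. SK-BR-3, an ERBB2-amplified line of human breast cancer, and MCF-10A, an immortalized non-tumorigenic line of human breast epithelium, were each treated for 16 h either with 20 µM diallyl trisulfide, DATS for short, which forms in crushed garlic, or with the vehicle DMSO at 0.07%. Each of the 4 groups held 3 libraries, prepared independently and numbered 1 to 3, and each kind of breast cell was represented by 1 line. All values were FPKM, read counts scaled to gene length and to a library size, so that levels could be compared between genes per length.

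Homologous recombination copies an intact sister chromatid to mend a broken one, with BRCA1, BRCA2 and PALB2 acting at the resected end. The Fanconi pathway removes crosslinks between DNA strands: its core complex adds ubiquitin to FANCD2 and FANCI, which then call in nucleases and recombination proteins. Many of these genes are transcribed most strongly as cells enter S phase, and inherited defects in several of them predispose to breast cancer.

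The identity markers went with the labels. ERBB2 averaged 390 FPKM in DATS-treated and 493 FPKM in DMSO-treated SK-BR-3 cells, against 8.62 and 8.26 FPKM in DATS-treated and DMSO-treated MCF-10A cells, and each line held the marker list of the other at a low level. These lists moved with DATS. The summed level of 6 basal markers was 48.5 to 82.2 FPKM in DATS-treated and 18.3 to 30.3 FPKM in DMSO-treated SK-BR-3 cells. There 3 of the 6 rose, KRT17 and LAMB3 the most. Their sum was 4418 to 5215 FPKM in DATS-treated and 4144 to 5202 FPKM in DMSO-treated MCF-10A cells. In MCF-10A limma called 1 of the 6 lower, KRT5, and edgeR and DESeq2 called 0 lower. The summed level of 7 luminal markers was 191 to 223 FPKM in DATS-treated and 116 to 134 FPKM in DMSO-treated MCF-10A cells, where 4 of the 7 rose, among them KRT8, FOXA1 and KRT18, against 5169 to 6583 and 4289 to 6283 FPKM in DATS-treated and DMSO-treated SK-BR-3 cells, where ERBB2 and SPDEF fell. Their part in the changes of the repair genes was not tested. Of the endothelial markers, CDH5 averaged 25.3 FPKM in DATS-treated and 11.8 FPKM in DMSO-treated SK-BR-3 cells, while PECAM1 and VWF stayed under 0.21 FPKM in all 12 libraries. The summed level of 5 fibroblast markers lay between 1.59 and 8.49 FPKM, and that of 4 leukocyte markers between 0.312 and 6.71 FPKM. Reads assigned to genes numbered 15295046 to 18407213 per library. In SK-BR-3, depth moved with the treatment, with 17950949 to 18182059 reads in DATS libraries and 15295046 to 17619720 in DMSO libraries. The share of reads in ribosomal RNA genes did so in both lines, at 0.427 to 0.557% against 0.344 to 0.41% in SK-BR-3 and at 0.261 to 0.386% against 0.243 to 0.257% in MCF-10A. The library size in the FPKM was not the number of reads in genes. Its ratio to that number was 0.886 to 0.919 in DATS and 0.930 to 0.982 in DMSO libraries of SK-BR-3. In MCF-10A it was 0.958 to 1.01 with DATS and 0.991 to 1.07 with DMSO. The part of depth, of the ribosomal share and of this ratio in the results below was not tested.

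A gene was tested when it reached 1 FPKM in at least 3 libraries, which kept 13194 genes and 42 of the 44 repair genes. RAD50 and RAD54B did not pass. RAD50, the ATPase that holds the MRE11 complex together, was counted with 9 to 123 reads per library, and 79.7% of its exonic bases were shared with the annotated readthrough gene AC116366.3 on the same strand. RAD54B, a RAD54-related motor protein, had 4 to 76 reads, and 59.1% of its exonic bases were shared with FSBP. Both levels are therefore uncertain. Another 6 genes, BRCA2, BRIP1, RAD51C, FANCB, FANCM and ATM, passed with less than 1 FPKM in at least 1 library. BRCA2, BRIP1 and FANCB lay under 1 FPKM in every SK-BR-3 library, and ATM in all of them but DMSO library 1. These passed through their MCF-10A levels, so the filter favoured a lower level in SK-BR-3 for them. The tested repair genes had from 33 reads, in FANCB, to 9720 reads, in XRCC6, per library.

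In MCF-10A cells DATS was followed by lower levels of genes of the Fanconi and recombination pathways. At an adjusted p under 0.05 (limma, adjusted over all 13194 genes), 12 of the 42 tested repair genes fell, 28.6%, against 2.11% of all tested genes. In the upward direction 0 were called, against 4.17% of all tested genes. At an unadjusted p under 0.05, 25 were lower and 1 was higher, against 9.1% and 14.5% of all tested genes. The log2 change was negative for 41 of the 42 genes, against 43.9% of all tested genes, and its median was -0.29, against 0.02 over all tested genes. The DATS and DMSO libraries did not overlap for 23 genes that were lower and for 1 that was higher, against 12.2% and 17.3% of all tested genes. In SK-BR-3 cells 5 of 42 fell, 11.9%, against 6.87% of all tested genes, and 1 rose, LIG4, against 11.3%. The median log2 change there was -0.08, against 0.03 over all tested genes, and the groups did not overlap for 12 genes that were lower and 2 that were higher, against 12.4% and 21.1% of all tested genes.

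**Figure D1:**
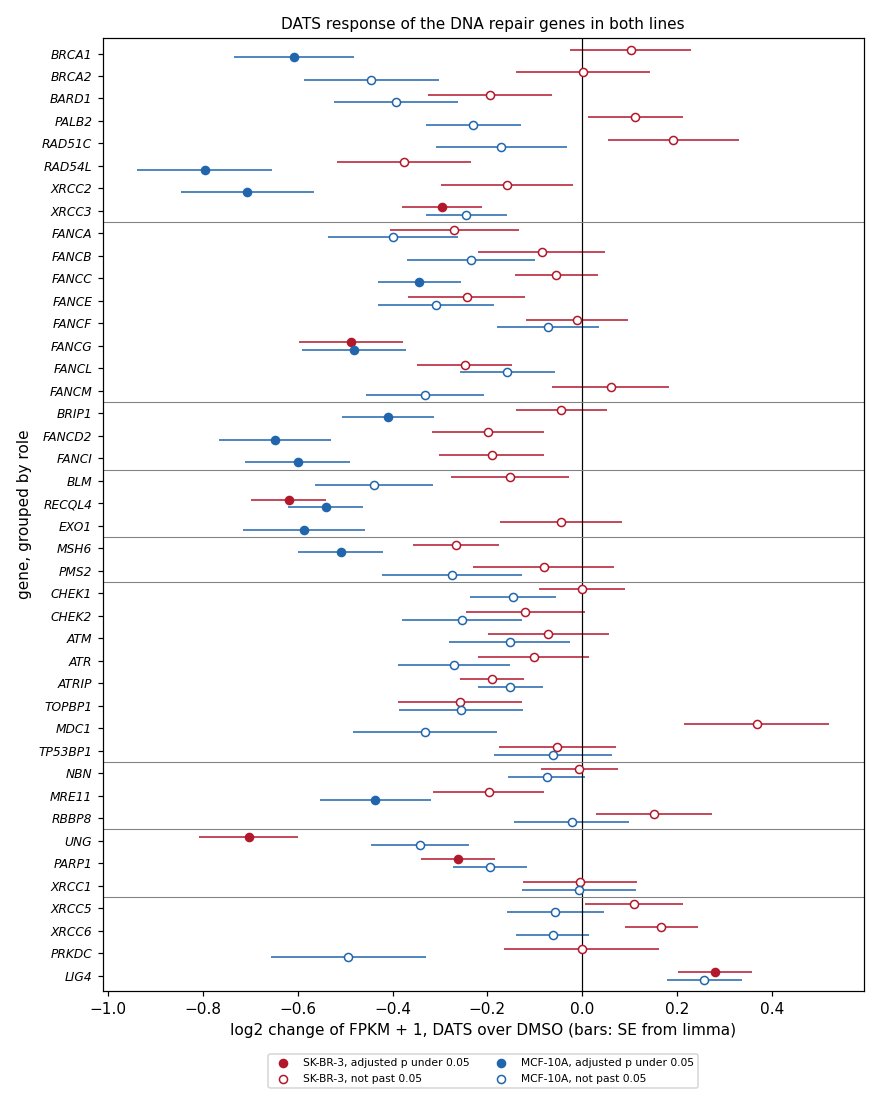
The x axis gives the log2 change of FPKM + 1, DATS over DMSO, of the 42 tested genes grouped by role on the y axis, in SK-BR-3 (red) and MCF-10A (blue), with the SE from limma as bars and filled points at an adjusted p under 0.05. All MCF-10A points but LIG4 lie left of 0, with 12 filled, and SK-BR-3 has 5 filled points left and 1 right of 0.

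FANCG and RECQL4 fell in both lines. FANCG, a scaffold subunit of the Fanconi core complex, lies at 9:35073835-35080016 on the minus strand. It had 6.09, 6.87 and 6.05 FPKM in DATS-treated SK-BR-3 libraries 1, 2 and 3, against 7.94, 9.86 and 10.2 FPKM in DMSO libraries. In MCF-10A it had 7.94, 7.79 and 7.14 FPKM with DATS, against 12.7, 10.9 and 9.62 FPKM with DMSO. Every DATS library lay below every DMSO library of its line. The log2 change was -0.49 in SK-BR-3 (SE 0.11, adjusted p = 0.0127) and -0.48 in MCF-10A (SE 0.11, adjusted p = 0.0288). Without SK-BR-3 DMSO library 3 the SK-BR-3 p was 0.0529. RECQL4, a helicase of replication initiation and end processing, had 11.9, 11.8 and 10.6 FPKM in DATS-treated SK-BR-3 libraries, against 18.1, 16.6 and 19.8 FPKM in DMSO libraries. In MCF-10A it had 13.2, 11.9 and 12.7 FPKM with DATS, against 19.1, 18.1 and 19.1 FPKM with DMSO. Here too the groups were apart in both lines, by more than the spread within any group. Its log2 change was -0.62 in SK-BR-3 (SE 0.08, adjusted p = 0.000996) and -0.54 in MCF-10A (SE 0.08, adjusted p = 0.00623). RECQL4 was the one repair gene called in both lines whichever library was left out.

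The promoters of 4 genes are shown for what they hold of cell cycle promoter words: FANCG as a gene lower in both lines, and RAD54L, UNG and LIG4, chosen after their values were seen, as the gene with the largest fall in MCF-10A, the one with the largest fall in SK-BR-3 and the one that rose. Each runs from 250 bases before to 50 bases after the RefSeq start (GRCh38.p14), 5′ to 3′ on the gene's strand: FANCG at chr9:35079893-35080192 (minus strand), RAD54L at chr1:46247438-46247737 (plus), UNG at chr12:109097347-109097646 (plus) and LIG4 at chr13:108218300-108218599 (minus). Capitals mark, on either strand, the E2F words TTCCCGC and TTGGCGC and the NF-Y word CCAAT. The CHR word TTTGAA was also sought and is in none of the 4.
FANCG: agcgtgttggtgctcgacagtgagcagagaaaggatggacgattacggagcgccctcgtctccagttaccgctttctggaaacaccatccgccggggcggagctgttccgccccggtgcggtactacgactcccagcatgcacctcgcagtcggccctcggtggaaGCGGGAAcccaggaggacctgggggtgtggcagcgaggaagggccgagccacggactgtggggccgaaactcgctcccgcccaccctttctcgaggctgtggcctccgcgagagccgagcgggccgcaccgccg
RAD54L: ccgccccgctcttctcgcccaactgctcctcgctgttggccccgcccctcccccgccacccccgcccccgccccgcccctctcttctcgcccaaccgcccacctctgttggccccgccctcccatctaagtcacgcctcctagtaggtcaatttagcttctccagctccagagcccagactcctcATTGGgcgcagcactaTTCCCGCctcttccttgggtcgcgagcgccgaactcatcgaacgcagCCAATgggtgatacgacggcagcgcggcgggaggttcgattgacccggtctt
UNG: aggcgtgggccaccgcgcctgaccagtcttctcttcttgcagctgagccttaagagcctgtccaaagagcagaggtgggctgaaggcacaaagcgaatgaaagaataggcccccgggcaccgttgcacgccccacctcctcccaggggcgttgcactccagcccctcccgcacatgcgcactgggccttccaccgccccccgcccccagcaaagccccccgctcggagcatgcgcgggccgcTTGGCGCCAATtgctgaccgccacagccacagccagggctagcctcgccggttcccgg
LIG4: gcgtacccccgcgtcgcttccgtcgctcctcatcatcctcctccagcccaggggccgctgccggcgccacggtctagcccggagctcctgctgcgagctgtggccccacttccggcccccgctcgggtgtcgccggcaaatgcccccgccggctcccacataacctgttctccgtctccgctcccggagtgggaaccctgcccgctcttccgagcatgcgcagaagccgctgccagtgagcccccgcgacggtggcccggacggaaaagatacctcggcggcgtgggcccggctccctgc
FANCG held 1 E2F word, 84 bases before the start. RAD54L held 1 E2F word and 2 CCAAT words. In UNG an E2F word overlapped its own reverse match and the CCAAT word, so that a single stretch was counted for each. LIG4 held none of the words. Promoters were given for 38 of the 44 genes, and 19 of these, 50%, held an E2F word, against 9.23% of 35116 RefSeq promoters of the same length, which include those of genes without a protein. CCAAT was in 20 of 38, 52.6%, against 34.6%, and TTTGAA in 5 of 38, 13.2%, against 15.2%. An E2F word was found in 7 of the 10 promoters of genes that fell in MCF-10A and in 12 of the 27 of tested genes not called there. In SK-BR-3 it was in 4 of 4 promoters of genes that fell and in 15 of 32 of genes not called. A match describes these letters and is not a binding site.

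Of the 8 tested homologous recombination genes, 3 fell in MCF-10A and all 8 had a negative log2 change, with a median of -0.42. RAD54L, a DNA motor protein of homologous recombination, had 3.26, 3.61 and 3.23 FPKM in DATS-treated MCF-10A libraries 1, 2 and 3, against 7.45, 7.30 and 5.21 FPKM in DMSO libraries. DMSO library 3 was the lowest of its group and still above all DATS libraries. The change was -0.80 on the log2 scale (SE 0.14, adjusted p = 0.0127). In SK-BR-3 RAD54L had 4.80, 4.84 and 5.34 FPKM with DATS, against 5.74, 6.23 and 8.60 FPKM with DMSO, a change of -0.38 (SE 0.14, adjusted p = 0.089), and with the preparation number as a block the adjusted p was 0.0357. Its exons share 25.1% of their bases with LRRC41 on the other strand, which had a log2 change of 0.09 in MCF-10A (SE 0.08, adjusted p = 0.58). XRCC2, which acts in homologous recombination, had 2.21, 2.46 and 2.10 FPKM in DATS-treated MCF-10A libraries, against 4.50, 4.53 and 3.92 FPKM in DMSO libraries. The groups stood well apart, and the change was -0.71 (SE 0.14, adjusted p = 0.018). BRCA1, the ubiquitin ligase that works with BARD1 at broken ends, had 3.94, 3.67 and 3.50 FPKM in DATS-treated MCF-10A libraries, against 6.73, 7.17 and 4.80 FPKM in DMSO libraries. All DATS values were below the lowest DMSO value, again that of library 3, with a change of -0.61 (SE 0.13, adjusted p = 0.0221).

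BRCA1's binding partner BARD1 averaged 2.6 ± 0.37 FPKM in DATS-treated and 3.73 ± 0.45 FPKM in DMSO-treated MCF-10A cells (SD, n = 3 each), a log2 change of -0.39 with an adjusted p of 0.0939, and of 0.0231 with the preparation number as a block. BRCA2, which acts downstream of BRCA1, averaged 1.05 ± 0.10 FPKM with DATS and 1.83 ± 0.59 FPKM with DMSO in the same line. Its change of -0.44 had an adjusted p of 0.0852 in limma, of 0.0448 by edgeR and of 0.0101 by DESeq2. PALB2, which links BRCA1 to BRCA2, changed by -0.23 and RAD51C, which works with XRCC3, by -0.17, with adjusted p of 0.192 and 0.505. XRCC3 was the recombination gene called in SK-BR-3. It had 1.84, 2.01 and 1.53 FPKM with DATS, against 2.32, 2.32 and 2.64 FPKM with DMSO. The groups did not overlap, the change was -0.30 (SE 0.08, adjusted p = 0.0329), and the adjusted p reached 0.119 when 1 library was left out. The libraries whose loss ended the call were SK-BR-3 DATS 1 and 3, SK-BR-3 DMSO 2 and 3 and MCF-10A DATS 2. Of XRCC3's exonic bases 76.7% are shared with KLC1 on the other strand, and KLC1 itself changed by 0.09 (SE 0.10, adjusted p = 0.617).

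The 3 genes downstream of the Fanconi core complex all fell in MCF-10A. FANCD2, the protein to which the complex adds ubiquitin, had 2.83, 3.25 and 2.76 FPKM in DATS-treated MCF-10A libraries 1, 2 and 3, against 5.52, 6.07 and 4.10 FPKM in DMSO libraries. No value of one group lay within the other, and the change was -0.65 (SE 0.12, adjusted p = 0.0134). FANCI, its partner in the clamp on DNA, had 7.68, 7.41 and 7.30 FPKM with DATS, against 13.4, 12.7 and 9.68 FPKM with DMSO. The DATS libraries lay close together and below all DMSO libraries, and the change was -0.60 (SE 0.11, adjusted p = 0.0136). BRIP1, a helicase that binds BRCA1, had 2.79, 2.28 and 2.94 FPKM with DATS, against 3.90, 4.30 and 3.42 FPKM with DMSO. These groups were closer, without overlap, and the change was -0.41 (SE 0.10, adjusted p = 0.0311). In SK-BR-3, FANCD2 changed by -0.20 (SE 0.12, adjusted p = 0.276), FANCI by -0.19 (SE 0.11, adjusted p = 0.26) and BRIP1 by -0.04 (SE 0.10, adjusted p = 0.81).

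Of the 8 genes of the core complex, FANCG and FANCC fell in MCF-10A. FANCC, a subunit that binds FANCE, had 1.36, 1.36 and 1.47 FPKM in DATS-treated libraries, against 2.15, 2.19 and 1.80 FPKM in DMSO libraries. The groups did not overlap at these low levels, and the change was -0.34 (SE 0.09, adjusted p = 0.0413). In SK-BR-3 FANCC averaged 1.09 ± 0.11 FPKM with DATS and 1.17 ± 0.13 FPKM with DMSO, and its groups overlapped. FANCA, a subunit of the complex, averaged 3.39 ± 0.32 FPKM in DATS-treated and 4.85 ± 1.10 FPKM in DMSO-treated MCF-10A cells, a change of -0.40 with an adjusted p of 0.104, and of 0.0445 with the block. FANCL, which carries the ubiquitin ligase activity, changed by -0.25 in SK-BR-3 and by -0.16 in MCF-10A, with adjusted p of 0.111 and 0.377. FANCM, which brings the complex to stalled forks, changed by 0.06 in SK-BR-3 and by -0.33 in MCF-10A, with adjusted p of 0.799 and 0.131. FANCB, FANCE and FANCF were not called in either line, with changes between -0.31 and -0.01.

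EXO1, the exonuclease of mismatch repair and long resection, had 8.13, 9.84 and 10.8 FPKM in DATS-treated MCF-10A libraries 1, 2 and 3, against 16.1, 15.7 and 12.9 FPKM in DMSO libraries. The groups did not overlap, and the change was -0.59 (SE 0.13, adjusted p = 0.0256). MSH6, which recognizes base mismatches, had 6.42, 6.57 and 7.29 FPKM with DATS, against 10.1, 10.6 and 9.37 FPKM with DMSO. Its groups lay apart by more than the range within each, and the change was -0.51 (SE 0.09, adjusted p = 0.0125). In SK-BR-3 MSH6 averaged 3.81 ± 0.52 FPKM with DATS and 4.76 ± 0.29 FPKM with DMSO, a change of -0.27 with an adjusted p of 0.0628, and of 0.0462 with the block. BLM, the helicase lost in Bloom syndrome, changed by -0.44 in MCF-10A with an adjusted p of 0.0593 in limma, of 0.0431 by edgeR and of 0.0113 by DESeq2. PMS2, a mismatch repair gene, changed by -0.27 there with an adjusted p of 0.292. Of the end resection genes MRE11, the nuclease that opens the end, had 4.17, 3.56 and 3.89 FPKM in DATS-treated MCF-10A libraries, against 6.16, 5.91 and 4.78 FPKM in DMSO libraries. The lowest DMSO value, of library 3, lay above the DATS range, and the change of -0.44 (SE 0.12) was at the threshold with an adjusted p of 0.04996. NBN and RBBP8, its partners in resection, changed by -0.07 and -0.02 in MCF-10A, with adjusted p of 0.637 and 0.953.

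**Figure D2:**
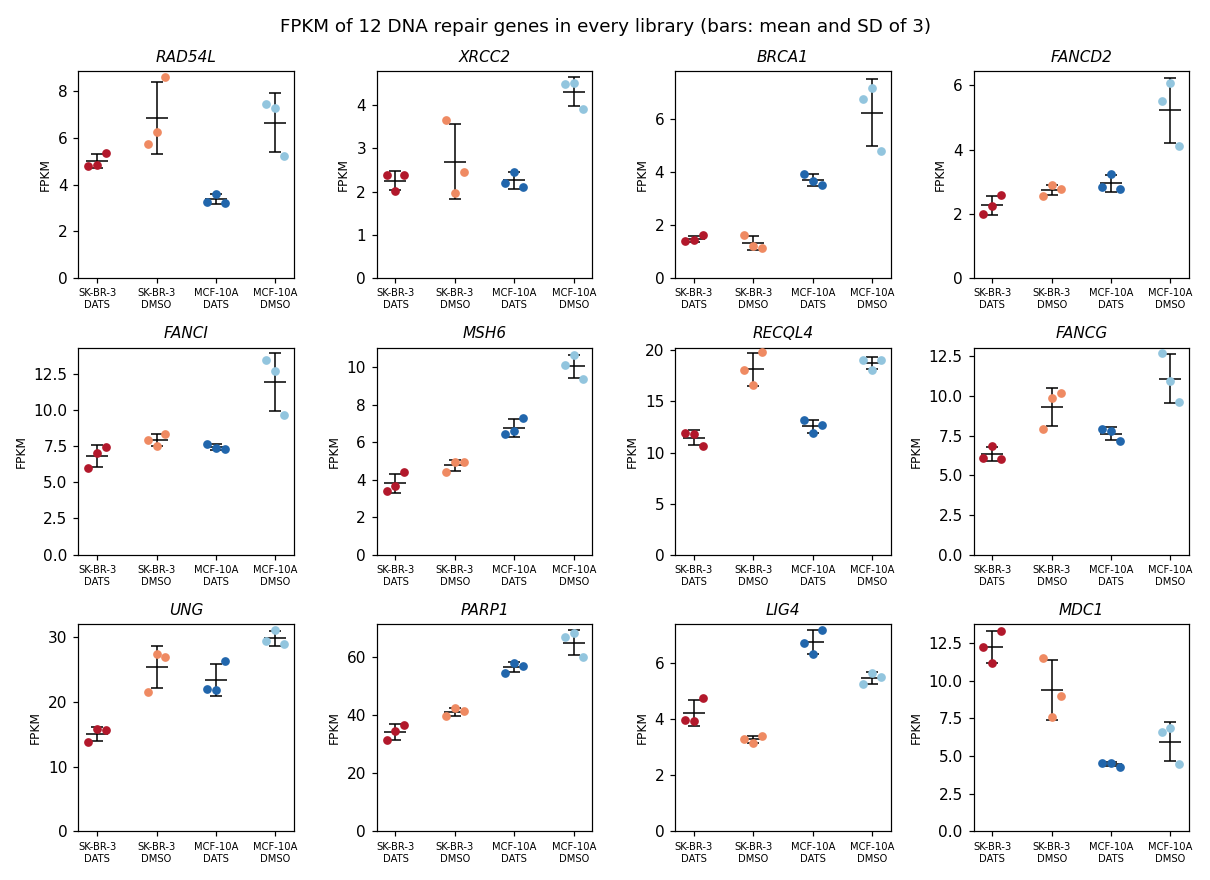
Each panel gives the FPKM of 1 gene on the y axis in the 12 libraries as points, with the mean and SD of 3 as bars, for 12 repair genes. RECQL4 and FANCG lie lower with DATS in both lines, FANCD2, FANCI and BRCA1 lie lower with DATS in MCF-10A with DMSO library 3 the lowest of its group, and LIG4 lies higher with DATS in both lines.

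In SK-BR-3 the base excision genes UNG and PARP1 fell. UNG, the glycosylase that removes uracil from DNA, had 13.8, 15.8 and 15.6 FPKM in DATS-treated SK-BR-3 libraries 1, 2 and 3, against 21.5, 27.4 and 26.9 FPKM in DMSO libraries. The highest DATS library lay below the lowest DMSO library, and the change was -0.70 (SE 0.10, adjusted p = 0.0018), with a call whichever library was left out. In MCF-10A UNG had 21.9, 21.8 and 26.2 FPKM with DATS, against 29.4, 31.0 and 28.8 FPKM with DMSO, a change of -0.34 (SE 0.10, adjusted p = 0.0723), and the adjusted p was 0.0304 with the block. PARP1, the sensor of strand breaks that builds poly(ADP-ribose), had 31.4, 34.7 and 36.8 FPKM in DATS-treated SK-BR-3 libraries, against 39.9, 42.4 and 41.5 FPKM in DMSO libraries. The groups were apart, with a small change of -0.26 (SE 0.08, adjusted p = 0.0384). That call was lost without any of SK-BR-3 DATS 1 or 2, SK-BR-3 DMSO 2 or 3, MCF-10A DATS 1 or 2 or MCF-10A DMSO 1, with an adjusted p of up to 0.12, and quantile normalization gave 0.0614. XRCC1, the scaffold of strand break repair, changed by 0.00 in SK-BR-3 and by -0.01 in MCF-10A, and its groups overlapped in both.

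LIG4, the ligase that seals ends in end joining, was the one repair gene that rose. It had 3.96, 3.94 and 4.72 FPKM in DATS-treated SK-BR-3 libraries, against 3.28, 3.14 and 3.40 FPKM in DMSO libraries. In MCF-10A it had 6.70, 6.31 and 7.16 FPKM with DATS, against 5.22, 5.64 and 5.5 FPKM with DMSO. The DATS libraries were above the DMSO libraries in both lines, with a change of 0.28 in SK-BR-3 (SE 0.08, adjusted p = 0.03) and of 0.26 in MCF-10A (SE 0.08, adjusted p = 0.072). With the block the adjusted p was 0.0446 in MCF-10A. The SK-BR-3 call was lost without SK-BR-3 DMSO library 2 or 3 or DATS library 3, with an adjusted p of up to 0.105, and edgeR on the recovered reads gave 0.0788. XRCC6 and XRCC5, the Ku subunits that cap broken ends, were among the most abundant repair genes: XRCC6 averaged 133 FPKM in DATS-treated and 118 FPKM in DMSO-treated SK-BR-3 cells, and XRCC5 averaged 47.8 and 44.1 FPKM there. Neither was called in a DATS comparison. PRKDC, the kinase that Ku activates, had 13.2, 14.6 and 16.3 FPKM in DATS-treated MCF-10A libraries, against 24.5, 24.5 and 15.3 FPKM in DMSO libraries. DMSO library 3 lay inside the DATS range, and the change of -0.49 had an SE of 0.16 and an adjusted p of 0.094 in limma. For PRKDC edgeR gave 0.0585 and DESeq2 0.0192.

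Of the 8 checkpoint genes, limma called 0 in the MCF-10A comparison, against 2.11% of all tested genes lower and 4.17% higher. In the SK-BR-3 comparison it called 0, against 6.87% lower and 11.3% higher. In MCF-10A their log2 changes were all negative, with a median of -0.20, and in SK-BR-3 7 were negative, with a median of -0.09. At an unadjusted p under 0.05, ATR, the kinase of stalled forks, and its partner ATRIP were lower in MCF-10A, against 9.1% of all tested genes. In SK-BR-3 ATRIP was lower and MDC1 higher, against 12.8% and 19.9%. ATRIP had an adjusted p of 0.047 in SK-BR-3 by edgeR, for a change of -0.19 in limma, and it was the one checkpoint gene that edgeR or DESeq2 called in these comparisons. It shares 27.9% of its exonic bases with TREX1 on the same strand, and TREX1 is listed at 0 in all 12 libraries. CHEK1 and CHEK2, the kinases that stop the cell cycle, changed by -0.15 and -0.25 in MCF-10A, with adjusted p of 0.369 and 0.251, and CHEK2 had an adjusted p of 0.0453 with the block. ATM, the kinase of broken ends, changed by -0.07 in SK-BR-3 and -0.15 in MCF-10A. TOPBP1, an activator of ATR, changed by -0.26 in each line, with adjusted p of 0.196 in SK-BR-3 and 0.263 in MCF-10A. TP53BP1, which holds back resection, changed by -0.05 in SK-BR-3 and -0.06 in MCF-10A.

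The preparation numbers were taken to pair the DATS and DMSO libraries, from correlations given under processing, and the main fit did not use them. With the number as a block the calls in MCF-10A came to 16 lower, against 5.21% of all tested genes, and 1 higher, against 10.7%. The added genes were BARD1, FANCA, CHEK2 and UNG, all lower, and LIG4. In SK-BR-3 the block gave 7 lower, against 10.3%, with RAD54L and MSH6 added, and 1 higher, against 17.1%. By preparation, the median log2 change of the 42 genes in MCF-10A was -0.35, -0.41 and -0.14 in preparations 1, 2 and 3. In SK-BR-3 the medians were -0.22, -0.09 and 0.02.

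MCF-10A DMSO library 3 had the lowest level in its group for 34 of the 42 tested genes and for 11 of the 12 that fell. Without it, 20 repair genes were called lower in MCF-10A, against 4.92% of all tested genes. The count was 1, RECQL4, without DMSO library 1, without DMSO library 2 or without DATS library 2, where 0.182%, 0.25% and 0.212% of all tested genes were called lower. It was 3 without DATS library 1, against 0.568%, and 7 without DATS library 3, against 0.955%. The adjusted p of the other 11 genes that fell then reached 0.0676, in MSH6, to 0.204, in MRE11. The calls of FANCC and MRE11 were also lost without SK-BR-3 DMSO library 2 or 3 or SK-BR-3 DATS library 2, which lend their spread to the fit. When the 6 MCF-10A libraries were fitted alone, limma called 0 repair genes and 0 genes in all, with adjusted p of 0.0514 to 0.102 for the 12 genes. In that fit 24 repair genes were lower at an unadjusted p under 0.05. The share of all tested genes lower at that p in the same fit is not given here. The fit of all 12 libraries takes 1 spread from both lines. edgeR and DESeq2 on the recovered reads called all 12 as lower, among 14 and 18 repair genes lower, against 2.09% and 4.34% of all genes given a p. Both added BRCA2 and BLM, and DESeq2 also added BARD1, FANCA, UNG and PRKDC. With quantile normalization, which raised the share of all tested genes called lower in MCF-10A to 4.66% and that called higher to 4.81%, all 12 were called too. In SK-BR-3 the fit of its 6 libraries alone called RECQL4 and UNG, and edgeR called 8 genes lower, against 8.42% of all tested genes.

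**Figure D3:**
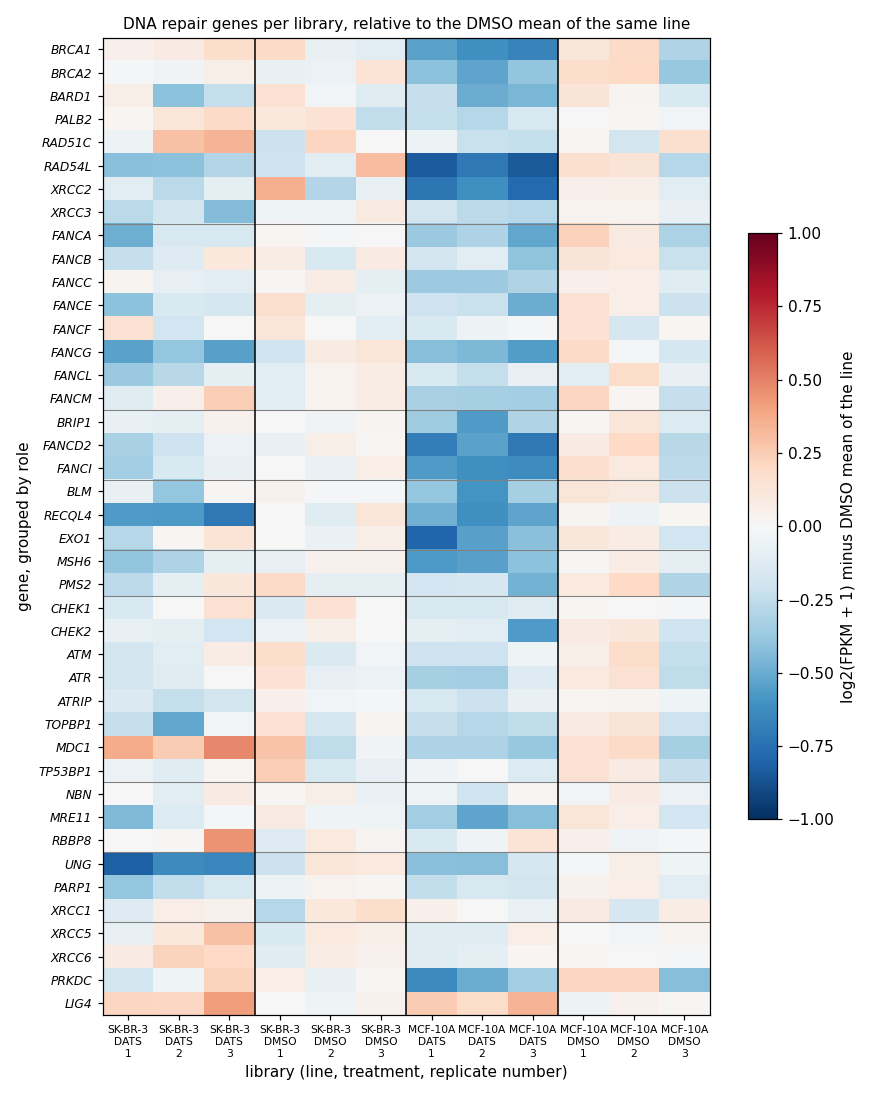
The y axis gives the 42 tested repair genes grouped by role and the x axis the 12 libraries, and the colour gives log2(FPKM + 1) minus the DMSO mean of the same line, blue below and red above it. RECQL4 and FANCG are blue in all DATS libraries of both lines and UNG most so in SK-BR-3, and MCF-10A DMSO library 3 is the lowest of its group for 34 of the 42 genes.

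**Figure D4:**
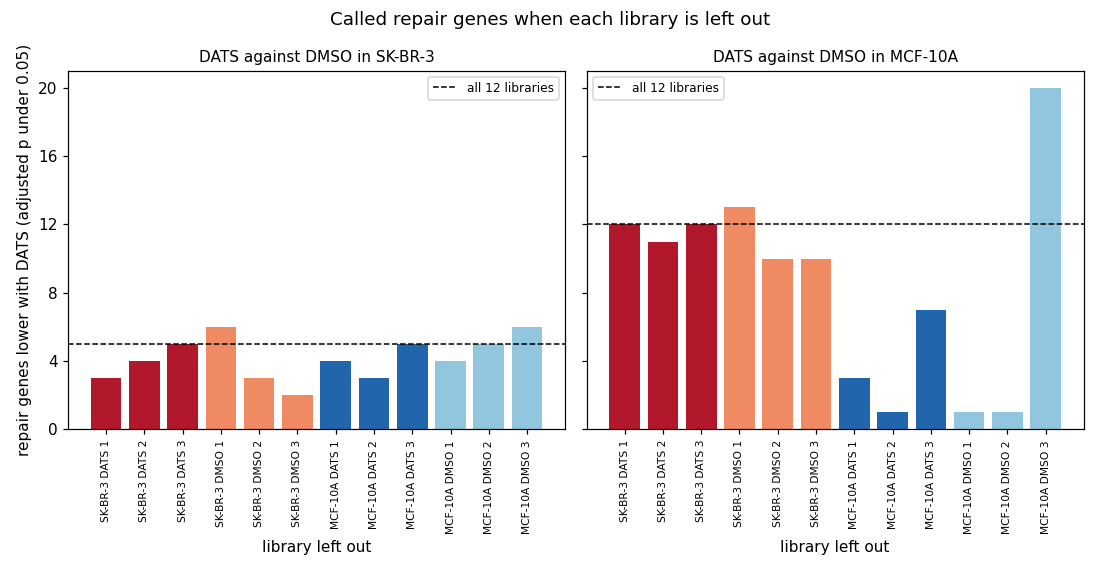
The y axis gives the number of the 42 tested repair genes called lower with DATS at an adjusted p under 0.05 when the library named on the x axis is left out, in each line. In MCF-10A the count ranges from 1 to 20, with 20 without DMSO library 3, and in SK-BR-3 from 2 to 6, where 3.49 to 8.03% of all tested genes were called lower.

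The authors' deposited table of MCF-10A genes holds genes with an unadjusted p under 0.05 and lists 31 of the 44 repair genes, 30 of them lower with DATS, and 20 of the 31, all lower and RAD50 among them, carry an adjusted p under 0.05. The authors' deposited table for SK-BR-3 lists 9, 8 of them lower, and those with an adjusted p under 0.05 are FANCG, PARP1, RECQL4 and UNG. There the authors' deposited table gives UNG a log2 fold change of -0.78 and RECQL4 one of -0.70.

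A direct test of the difference between the responses, SK-BR-3 minus MCF-10A, called 1 gene as higher, BRCA1, against 2.48% of all tested genes. None was called lower, against 1.81%, and 11 were higher and 1 lower at an unadjusted p under 0.05, against 11% and 10.1%. The difference was positive for 34 of 42 genes and negative for 8, against 49.3% negative over all tested genes. Its median was 0.17, against 0.00 over all tested genes. The log2(FPKM + 1) scale understates changes of low genes, and 28 of the 42 were lower in SK-BR-3 in DMSO. The part of this in the difference was not tested. BRCA1 had 1.38, 1.44 and 1.60 FPKM in DATS-treated SK-BR-3 libraries, against 1.63, 1.18 and 1.13 FPKM in DMSO libraries, and these groups overlapped. Its change there was 0.10 (SE 0.13), against -0.61 in MCF-10A, and the difference of 0.71 had an SE of 0.18 and an adjusted p of 0.0499. The call held in 2 of the 12 fits that left out a library, without MCF-10A DMSO 3 and without SK-BR-3 DMSO 1, and its adjusted p reached 0.126 in the others. edgeR gave 0.0612 and the block 0.0367. MDC1, an adaptor that gathers repair proteins on damaged chromatin, had 12.2, 11.2 and 13.3 FPKM in DATS-treated SK-BR-3 libraries, against 11.5, 7.58 and 8.99 FPKM in DMSO libraries. In MCF-10A it had 4.54, 4.53 and 4.29 FPKM with DATS, against 6.57, 6.84 and 4.44 FPKM with DMSO. Both pairs of groups overlapped, and the difference of 0.70 (SE 0.22) had an adjusted p of 0.0926, and of 0.0444 with the block, which called 2 genes higher, against 5.29%. For FANCG and RECQL4, lower in both lines, the differences of -0.01 and -0.08 had 95% intervals of -0.35 to 0.33 and of -0.32 to 0.17. For UNG the difference was -0.36 (SE 0.15, adjusted p = 0.189), and for RAD54L it was 0.42 (SE 0.20, adjusted p = 0.256).

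In DMSO the lines differed in 31 of the 42 tested repair genes, with 28 lower in SK-BR-3, 66.7%, against 35.5% of all tested genes, and 3 higher, NBN, MDC1 and XRCC1, against 36.6%. The median log2 difference, SK-BR-3 minus MCF-10A, was -0.49, against 0.01 over all tested genes, and the libraries did not overlap for 27 genes that were lower and 4 that were higher, against 36.6% and 37.3%. Among the 36 genes with at least 1 FPKM in all libraries, 23 were lower, against 33.1% of such genes, and 3 were higher, against 36.9%. NBN, the subunit that brings the MRE11 complex to breaks, had 63.8, 65.9 and 60.5 FPKM in SK-BR-3 libraries, against 9.31, 10.1 and 9.06 FPKM in MCF-10A libraries. The difference was 2.62 (SE 0.08, adjusted p = 7.73e-11), the largest in size of the 42 genes, and NBN averaged 63.2 and 8.98 FPKM in DATS-treated SK-BR-3 and MCF-10A cells. MDC1 averaged 9.36 ± 1.99 FPKM in SK-BR-3 and 5.95 ± 1.31 FPKM in MCF-10A (SD, n = 3 each), a difference of 0.58 with an adjusted p of 0.00493. XRCC1 averaged 8.68 ± 1.57 FPKM in SK-BR-3 and 5.99 ± 0.68 FPKM in MCF-10A, a difference of 0.46 with an adjusted p of 0.0043.

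Of the 8 tested recombination genes, 6 were lower in SK-BR-3. RAD51C had 0.571, 1.12 and 0.824 FPKM in SK-BR-3 libraries, against 6.14, 5.22 and 6.89 FPKM in MCF-10A libraries. The SK-BR-3 level, near the filter, was far under the MCF-10A range, and the difference was -1.95 (SE 0.14, adjusted p = 1.19e-07). BRCA1 averaged 1.31 ± 0.28 FPKM in SK-BR-3 and 6.23 ± 1.26 FPKM in MCF-10A, a difference of -1.64 (SE 0.13, adjusted p = 2.67e-07). BRIP1 averaged 0.912 ± 0.040 FPKM in SK-BR-3 and 3.88 ± 0.44 FPKM in MCF-10A, a difference of -1.35 (SE 0.10, adjusted p = 1.26e-07). It lay under 1 FPKM in every SK-BR-3 library and passed the filter through MCF-10A alone, which favours a lower level in SK-BR-3. EXO1 averaged 5.47 ± 0.29 FPKM in SK-BR-3 and 14.9 ± 1.76 FPKM in MCF-10A, a difference of -1.29 (SE 0.13, adjusted p = 2.31e-06). RBBP8, which activates MRE11 for resection, had 4.20, 5.07 and 4.79 FPKM in SK-BR-3 libraries, against 12.4, 11.7 and 11.8 FPKM in MCF-10A libraries, and differed by -1.19. FANCE, which links the core complex to FANCD2, had 4.28, 3.42 and 3.55 FPKM in SK-BR-3 libraries, against 10.1, 9.46 and 7.61 FPKM in MCF-10A libraries, and differed by -1.08. All 4 end joining genes were lower in SK-BR-3: XRCC5 by -1.0, LIG4 by -0.59, PRKDC by -0.45 and XRCC6 by -0.34. PRKDC's groups overlapped, since MCF-10A DMSO library 3 lay within the SK-BR-3 range.

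The 11 genes not called between the DMSO groups were RAD54L, BARD1, FANCB, FANCF, FANCG, BLM, RECQL4, PMS2, CHEK2, MRE11 and UNG. RECQL4 averaged 18.1 FPKM in SK-BR-3 and 18.8 FPKM in MCF-10A, a difference of -0.05 with a 95% interval of -0.22 to 0.13. RAD54L averaged 6.86 and 6.65 FPKM in SK-BR-3 and MCF-10A, a difference of 0.04 with an interval of -0.28 to 0.35. Of the 31 calls, 26 held whichever library was left out. Those of XRCC3, FANCM, TOPBP1, PRKDC and TP53BP1 did not, and without MCF-10A DMSO library 1 none of these 5 was called. Without MCF-10A DMSO 2 or SK-BR-3 DMSO 2 the calls of XRCC3, TOPBP1 and PRKDC were lost, without SK-BR-3 DMSO 1 that of XRCC3 and without SK-BR-3 DMSO 3 that of PRKDC. That of TP53BP1 was lost in 10 of the 12 fits, with an adjusted p of up to 0.167, against 0.0457 with all libraries. Quantile normalization gave XRCC3 an adjusted p of 0.135 and TP53BP1 one of 0.0935. The fit of the DMSO libraries alone gave TP53BP1 0.109 and PRKDC 0.0537. With 1 line of each kind, differences between the lines cannot be told apart from differences between cancer and non-tumorigenic cells.

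**Figure D5:**
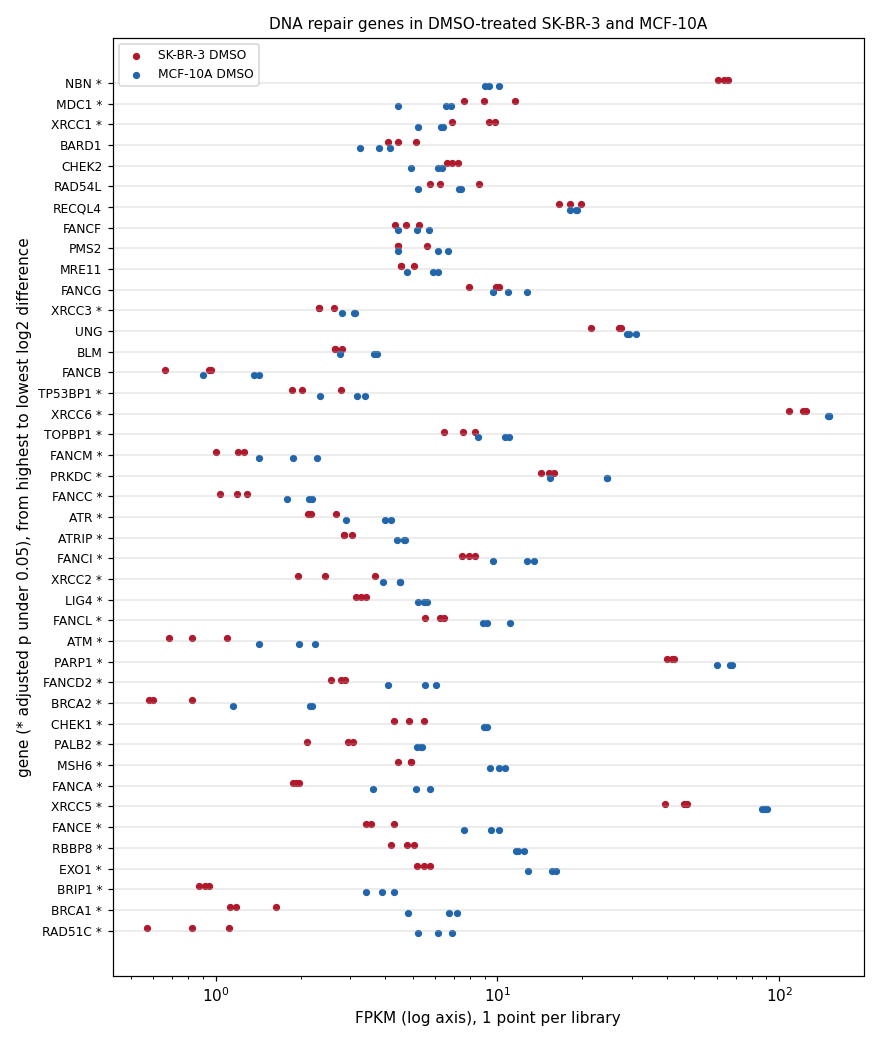
The x axis gives FPKM on a log scale and the y axis the 42 tested repair genes from the highest to the lowest log2 difference, SK-BR-3 minus MCF-10A, with 1 point per DMSO library, SK-BR-3 in red and MCF-10A in blue, and a star at an adjusted p under 0.05. NBN at the top lies higher in SK-BR-3, RAD51C and BRCA1 at the bottom lie lower in SK-BR-3, and 31 genes carry a star.

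Of 97 other genes of the same pathways, 91 were tested. In SK-BR-3 8 of the 91 fell and 9 rose, against 6.87% and 11.3% of all tested genes. In MCF-10A 6 fell and 1 rose, against 2.11% and 4.17%. Of 29 further Fanconi and recombination genes 24 had a negative log2 change in MCF-10A, against 43.9% of all tested genes, with a median of -0.24. At an unadjusted p under 0.05 in limma, 15 were lower and 2 higher, against 9.1% and 14.5%. DESeq2 called 10 lower, against 4.34% of genes given a p, and edgeR 2, against 2.09%. At an adjusted p under 0.05 in limma 2 fell in MCF-10A, FIGNL1 and USP1, against 2.11% of all tested genes. FIGNL1, an ATPase of recombination, had 3.27 ± 0.37 FPKM with DATS and 5.16 ± 0.76 FPKM with DMSO. USP1, which removes ubiquitin from FANCD2, had 13.9 ± 0.65 FPKM with DATS and 20.0 ± 0.91 FPKM with DMSO. In SK-BR-3 FAAP100, a core complex subunit, fell by 0.71 on the log2 scale and RMI2, of the BLM complex, by 0.48, while UBE2T, the ubiquitin-conjugating enzyme of the pathway, rose by 0.32 (adjusted p = 0.0341, and 0.0767 by edgeR). The end joining factor PAXX averaged 30.6 ± 2.64 FPKM with DATS and 54.4 ± 6.31 FPKM with DMSO in SK-BR-3, a change of -0.81, and XRCC4, the partner of LIG4, averaged 3.39 ± 0.45 FPKM with DATS and 1.88 ± 0.14 FPKM with DMSO, a change of 0.60. In nucleotide excision repair 4 of 17 tested genes rose in SK-BR-3, against 11.3% of all tested genes. Among them were RAD23B, by 0.39, MNAT1, by 0.32, and GTF2H1, by 0.30, the last with an adjusted p of 0.0223, and of 0.0507 by edgeR. Of the 17, edgeR called 2 higher, against 8.68%, and DESeq2 3, against 13.6%. The log2 change was negative for 10 of the 17, with a median of -0.01. LIG1, the replicative ligase, fell in both lines, by 0.63 in SK-BR-3 and by 0.51 in MCF-10A. CDC25A, the phosphatase that checkpoints switch off, also fell in both, by 0.48 in SK-BR-3 and by 0.42 in MCF-10A. The responses of USP1, XRCC4 and FAAP100 differed between the lines, SK-BR-3 minus MCF-10A, by 0.46, 0.96 and -0.68, with adjusted p of 0.0266, 0.00806 and 0.011. WEE1 and RFWD3 differed by 0.52 and 0.41, with adjusted p of 0.0481 and 0.0499 in limma and of 0.0656 and 0.0916 by edgeR.

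Cell cycle genes moved beside the repair genes. In MCF-10A 18 of 29 S phase genes fell, against 2.11% of all tested genes, with a median log2 change of -0.48. Their summed level was 516 to 603 FPKM with DATS and 757 to 781 FPKM with DMSO. In SK-BR-3 8 of 29 fell, against 6.87%, with a median of -0.24 and summed levels of 777 to 866 FPKM with DATS and 898 to 1063 FPKM with DMSO. Of 20 genes of G2 and M phase 7 fell in MCF-10A, against 2.11%, with a median of -0.46, while 12 rose in SK-BR-3, against 11.3%, with a median of 0.53. The summed level of the G2 and M genes was 508 to 688 FPKM with DATS and 846 to 915 FPKM with DMSO in MCF-10A, and 1102 to 1182 FPKM with DATS and 706 to 829 FPKM with DMSO in SK-BR-3. Of 15 p53 targets 5 rose in MCF-10A, against 4.17%. In SK-BR-3 limma, edgeR and DESeq2 called 0 of them, against 11.3%, 8.68% and 13.6% of all genes higher and 6.87%, 8.42% and 9.27% lower. There 0 had an unadjusted p under 0.05 in limma, against 19.9% higher and 12.8% lower. The part of cell cycle phase in the levels of the repair genes was not tested. In bulk RNA, fewer cells with a transcript and less transcript per cell cannot be told apart.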

How the data were processed

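RNA was measured by sequencing in 12 libraries, 3 for each of 4 groups. Per the submitters' processing notes, STAR 2.6.1d, DESeq2 and the build GRCh38 were used; how reads were counted, on which annotation and whether by strand, is not given in the sources used here. FPKM for 58735 genes were deposited by the authors, with no counts in this table, as were their own tables for each line, which list part of the genes with read counts, the counts divided by a size factor of the library (a normalized signal), FPKM, log2 fold changes and p-values. Gene lengths in the deposited tables matched GENCODE 29 for 6372 of 6372 genes. The library size in the FPKM was taken from the read counts and FPKM of the authors' tables. With it and those lengths, 704820 of 704820 FPKM values gave whole reads within 1e-06, so depth could be recovered.

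The 13194 genes that reached 1 FPKM in 3 or more libraries were tested with limma 3.58.1 in R 4.3.3 on log2(FPKM + 1), with 4 group means over 12 libraries, a trended empirical Bayes variance and Benjamini-Hochberg adjustment over all tested genes. All log2 changes are on this scale, which understates changes of low genes. Called means an adjusted p under 0.05. The p-values measure the spread between the preparations within a group, pooled over the 4 groups of both lines. The pairing of DATS and DMSO libraries by number, described below, is left out of the main fit. The alternatives were a pseudocount of 0.1, no filter, at least 1 FPKM in all 12 libraries, quantile normalization, the preparation number as a block, only the groups compared, edgeR 4.0.16 and DESeq2 1.42.0 on the recovered reads, and each library left out. The limma step was also run on simulated counts with changes set in SK-BR-3 alone and no effect of preparation, and no result here rests on that run.

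Deviations from the group means correlated between same-numbered DATS and DMSO libraries at 0.39, 0.24 and 0.25 in SK-BR-3 and at 0.21, 0.19 and 0.33 in MCF-10A, so the numbers were taken to pair them. Differently numbered libraries of a line correlated at -0.30 to 0.11. Across the lines in DMSO the correlations of same-numbered libraries were 0.10, -0.21 and 0.05, and those of differently numbered libraries reached 0.22. The numbers were not taken to pair the lines.

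The 44 genes and all lists were chosen with earlier results of these data known. Any of the 44 could be named, other genes only as up to 3 called genes of a list with the largest changes in a comparison, and as identity markers. Promoters came from RefSeq (GRCh38.p14).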

Additional observations from a re-analysis of the deposited data

Results flagged for a closer look

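BRCA1 stood out because its DATS response differed between the lines in a direct test: the difference, SK-BR-3 minus MCF-10A, was 0.71 on the log2(FPKM + 1) scale, with a change of 0.10 in SK-BR-3 and of -0.61 in MCF-10A. Its adjusted p was 0.0499 in limma, and 10 of the 12 fits that left out a library did not call it.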

How the results depend on the processing

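No called repair gene changed direction under any alternative run. The share of all genes called also shifts with the setting, and it is not given here for no filter or a pseudocount of 0.1. No filter tested all 44 repair genes, not 42. In MCF-10A the count of repair genes called lower was 12, against 2.11% of all tested genes. It was 6 with no filter on low values, and 0 with only the groups compared, where 0% of all tested genes were called lower. A pseudocount of 0.1 gave 9, with BRIP1, FANCC and MRE11 lost at adjusted p of 0.0581, 0.0566 and 0.0639. The count called higher was 0, against 4.17%, and 1 with the replicate block, against 10.7%. In SK-BR-3 the count lower was 5, against 6.87%. It was 3 with no filter, 2 with only the groups compared, against 2.18%, and 8 with edgeR, against 8.42%. Quantile normalization gave 4, without PARP1, against 7.82%. The count higher was 1, against 11.3%, and 0 with no filter. It was also 0 with only the groups compared, against 4.77%, and with edgeR, against 8.68%. For the difference of the responses the count higher was 1, against 2.48%. It was 0 with a pseudocount of 0.1, with no filter and with edgeR, the last against 1.86%. It was 2 with the replicate block, against 5.29%, and 2 with DESeq2, against 4.96%. Only the groups compared leaves 6 libraries in the fit; otherwise the cause was not tested. With 1 library left out, the counts ranged from 1 to 20 lower in MCF-10A, against 0.182 to 4.92% of all tested genes. In SK-BR-3 they ranged from 2 to 6 lower, against 3.49 to 8.03%, and from 0 to 2 higher. They ranged from 0 to 6 higher for the difference, and from 23 to 33 lower and 3 to 4 higher between the DMSO groups. The shares of all genes in the fits behind these other ranges are not given here. In the comparison of the DMSO groups, where the numbers were not taken to pair the libraries, the block gave 29 lower and 4 higher, against 36% and 37.2% of all tested genes. No filter, quantile normalization and only the groups compared each ended 2 of the 31 calls there: TP53BP1 in all 3, PRKDC without a filter and with only the groups compared, and XRCC3 with quantile normalization. In the DATS comparisons the block changed no other call than those given with it above. Depth limits genes near the filter, such as FANCB with 33 to 97 reads, and RAD50 and RAD54B did not pass it.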
